A study of Mus musculus with 21 samples.

Results

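RNA sequencing of 6 libraries was used to compare mouse embryoid bodies that carried a construct joining TWIST1 to TCF12 with embryoid bodies that carried a construct joining TWIST1 to TCF4. The 6 libraries, 3 a group, were chosen by their titles from the 21 libraries of 7 groups in the series, and all genes were considered. Embryoid bodies are floating aggregates in which embryonic stem cells begin to differentiate. Both groups had the C57BL/6 strain label and derived from the A2loxCre stem cell line, with a Twist1-Tcf12 or a Twist1-Tcf4 dimer sequence integrated behind a doxycycline-inducible promoter. Both received doxycycline for 16 h before they were collected on day 3. The labels do not say whether each line was 1 clone or whether replicates came from separate cultures. A difference between the lines and a difference between the dimers therefore cannot be told apart, and p-values measure only the spread between these samples, which may be technical. The other 15 libraries (the parental line, TWIST1 monomer with and without doxycycline, TWIST1 homodimer and TWIST1-TCF3 dimer) entered the fit to estimate the spread between replicates.

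TWIST1 belongs to the basic helix-loop-helix family, whose members bind DNA in pairs, and is known for its roles in mesoderm, in cranial mesenchyme and in epithelial-mesenchymal transition. Its usual partners are the widely expressed E proteins TCF3, TCF4 and TCF12. The DNA element of such dimers is the E-box, CANNTG. The Id proteins lack a basic region and hold E proteins in dimers that cannot bind DNA.

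The 6 libraries held 11028711 to 15999693 counts and 18934 to 20883 symbols with at least 1 count. An abundance of 3 counts corresponded to 0.188 to 0.272 CPM, the count scaled by library size, and covers counting error only. The tables of the TCF12 group kept 25 symbols that the other 18 tables give as calendar dates, and this difference in handling cannot be told apart from the group. Sample 1 labelled TCF12 dimer stood apart by transcript length, so results are given with it (21 samples in the fit) and without it (20 samples). Relative to the other 2 samples of its group, its genes deviated by a median log2 value of 0.734 in the shortest of 5 length classes (median length 1354 nt) and of -0.725 in the longest (6877 nt). The 3 TCF4 samples deviated by -0.039 to 0.031 in all 5 classes. These values use 12890 tested genes with a known length and a mean of at least 1 CPM over the 6 libraries. Across these genes, which are not independent replicates, Spearman's rho of deviation on length was -0.668 for sample 1. It was 0.590 and 0.634 for samples 2 and 3, whose deviations include sample 1, and -0.116 to 0.116 for the TCF4 samples.

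**Figure D1:**
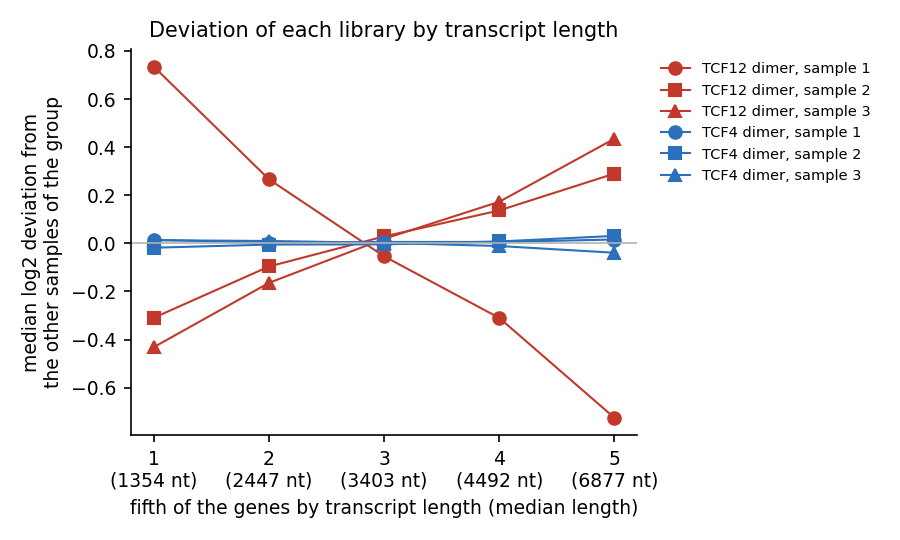
Median log2 deviation of each of the 6 libraries from the other 2 samples of its group (vertical axis) in 5 classes of genes ordered by transcript length (horizontal axis). Sample 1 labelled TCF12 dimer goes from 0.734 in the shortest class to -0.725 in the longest, whereas the TCF4 lines stay between -0.039 and 0.031.

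The genes of the constructs serve as a check of the labels. Twist1 stood at 39.5, 48.3 and 38.98 CPM in samples 1 to 3 labelled TCF12 dimer and at 41.8, 40.4 and 36.1 CPM in the TCF4 dimer samples, with 8.11 CPM in the parental line. The groups overlapped, and the log2 fold change of TCF12 over TCF4 did not pass (0.10, adjusted p 0.47, and 0.15, adjusted p 0.36 without sample 1, edgeR). Tcf4 stood at 34.4, 56.2 and 58.2 CPM in the TCF12 group and at 349, 337 and 305 CPM in the TCF4 group. All TCF4 samples lay above all TCF12 samples, and the log2 fold change was -2.73 ± 0.15 (SE, adjusted p 3.2e-09) and -2.53 ± 0.08 without sample 1 (adjusted p 3.3e-20). The label of the TCF4 group thus shows in its own partner gene.

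The label of the TCF12 group does not show as clearly. Tcf12 stood at 53.2, 118 and 108 CPM in the TCF12 group and at 93.7, 92.5 and 84.97 CPM in the TCF4 group. Sample 1 was the lowest of the 6 and samples 2 and 3 were the highest. The log2 fold change was 0.05 ± 0.18 (SE, adjusted p 0.89) and 0.32 ± 0.08 without sample 1 (adjusted p 0.015), and with the length trend of each library removed it was 0.20 (adjusted p 0.21). Tcf3, the remaining E protein, stood at 166 to 189.9 against 175 to 183 CPM and did not pass in either fit. All directions given here are those of the labels.

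Hprt encodes an enzyme of purine salvage and adjoins the place where the A2lox system puts its inducible insert. It stood at 11.9, 8.29 and 5.81 CPM against 32.6, 31.99 and 25.7 CPM, and the parental line was at 82.8 ± 2.86 CPM (SD, n = 3). The TCF12 samples were all lower, with a log2 fold change of -1.81 ± 0.17 (SE, adjusted p 1.2e-05) and -2.08 without sample 1. The 2 lines thus differed beside the insert as well as in the partner gene, and the part of this in other results was not tested.

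**Figure D2:**
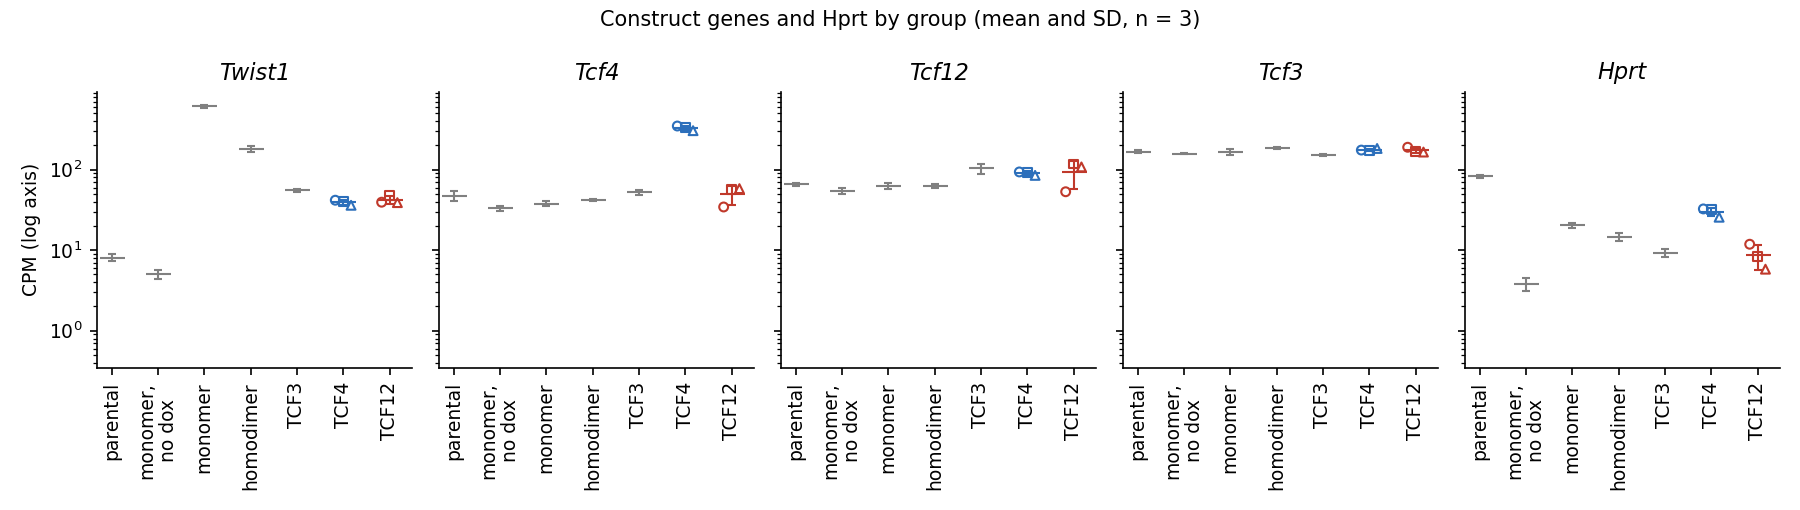
Abundance (CPM, log axis) of Twist1, Tcf4, Tcf12, Tcf3 and Hprt in the 7 groups, with the mean and SD over 3 samples and open symbols for the single samples of the TCF4 and TCF12 groups. Tcf4 separates the TCF4 group from all others, whereas Tcf12 in the TCF12 group spreads to both sides of the TCF4 group.

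Of 14311 genes tested with 21 samples, 464 passed an adjusted p of 0.05 (3.24%), 296 of them higher in the libraries labelled TCF12 dimer (2.07%) and 168 lower (1.17%). Without sample 1, 687 of 14423 passed (4.76%), 431 higher (2.99%) and 256 lower (1.77%). In both fits and in the same direction 391 of 14294 genes passed (2.74%), 247 higher (1.73%) and 144 lower (1.01%). These are 84.3% of the first set and 56.9% of the second. The changes were mostly small, with a median log2 fold change without sample 1 of 0.63 for the higher and -0.39 for the lower genes, and 67 of the 391 changed by at least 1 (56 higher, 11 lower). In 387 of the 391 the samples of the groups did not overlap. These genes were chosen by the same contrast and the share over all genes is not given, so this count is no separate support. Sample 1 was the highest of its group in 168 of the 247 higher genes and the lowest in 114 of the 144 lower ones. Sample 3 was below sample 2 in 210 of the 247 and above it in 111 of the 144, against 51% of all tested genes with sample 3 below sample 2.

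The number passing depended on single libraries. It was 213, 85 and 49 without TCF4 sample 1, 2 or 3, and 1978 and 4868 without sample 2 or 3 labelled TCF12 dimer. When sample 1 labelled TCF12 dimer was left out as well, it was 683, 525 and 342 without TCF4 sample 1, 2 or 3. In a fit of the 6 libraries alone 0 genes passed with edgeR (898 at an unadjusted p under 0.05), and 588 passed in a fit of 5 without sample 1. DESeq2 called 951 genes with 21 samples and 480 without sample 1. The share of calls that were higher was 63.8% with 21 samples. It ranged over the settings run from 55.6% (library size only), 58.5% (without sample 3 labelled TCF12 dimer) and 59.1% (voom weights) to 75.5% (without TCF4 sample 3), 76% (no filter on low counts) and 77.1% (without sample 2 labelled TCF12 dimer). Of 71 genes named below or in the closing section that passed with 21 samples, beside the 24 with the largest changes, 65 lost their call without at least 1 TCF4 sample and 6 passed in all 6 fits that left out 1 library. When sample 1 labelled TCF12 dimer was left out as well, 41 of the 71 passed in all 3 fits lacking a TCF4 sample.

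Transcript length differed between the sets. Genes higher with 21 samples only had a median transcript length of 2360 nt, and those lower with 21 samples only one of 4828 nt. Genes higher only without sample 1 had a median of 5221 nt, and those lower only without it one of 2760 nt. For the genes passing in both fits the medians were 3020 nt (higher) and 3998 nt (lower), against 3344 nt for all genes tested. With the length trend of each library removed, 370 of the 391 also passed (236 higher, 134 lower). The genes said below to rise or fall passed in both fits unless stated, and paired values give the log2 fold change with 21 samples and then without sample 1.

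**Figure D3:**
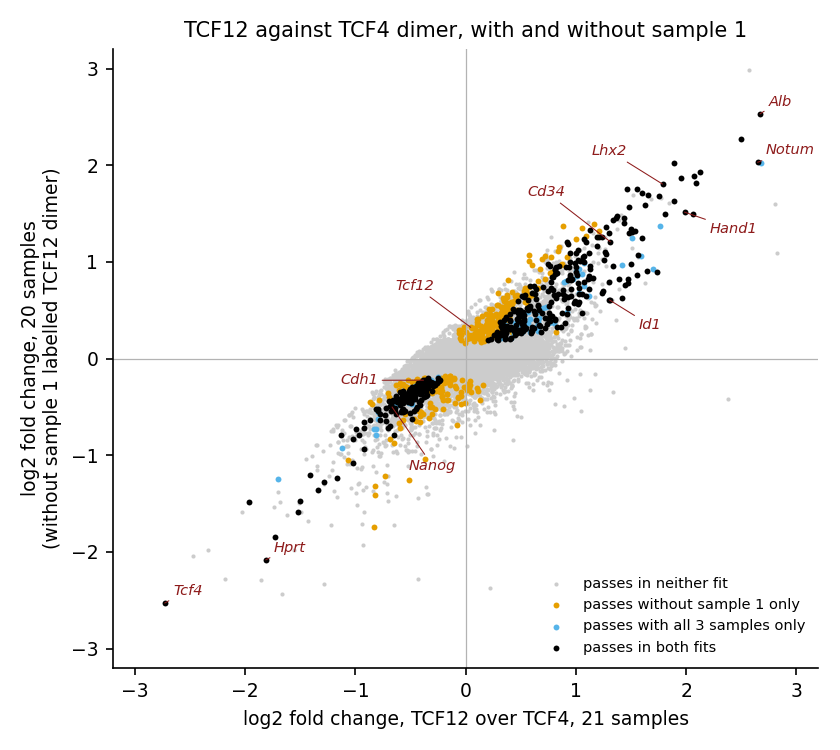
Log2 fold change of TCF12 over TCF4 with 21 samples (horizontal axis) and with 20 samples, without sample 1 labelled TCF12 dimer (vertical axis), for the 14294 genes tested in both (5 lie outside the axes). Of the labelled genes, Alb, Notum, Lhx2 and Hand1 lie toward the higher end and Tcf4 and Hprt at the lower end in both fits.

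Among genes averaging at least 5 CPM in the higher group, the 12 with the largest rises were Notum, Hand1, Dkk1, Lhx2, Isl1, Selm, Fam212a, Lox, Serpinf1, Crabp1, Gata2 and Fam181b. They include secreted WNT inhibitors and transcription factors of mesoderm, limb and blood. Notum, Dkk1, Lhx2, Lox and Gata2 passed in all 6 fits that left out 1 library. The calls of Isl1, Serpinf1 and Fam181b were lost without TCF4 sample 3, and those of Hand1, Selm, Fam212a and Crabp1 without TCF4 sample 2 or 3. All 12 passed in the 3 fits that left out a TCF4 sample together with sample 1 labelled TCF12 dimer.

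Notum encodes a secreted enzyme that inactivates WNT proteins by removing their lipid (chr11:120653788-120661175, GRCm38, GENCODE M21, as for the positions below). It stood at 26.02, 12.1 and 7.43 CPM in samples 1 to 3 labelled TCF12 dimer and at 2.595, 2.05 and 2.43 CPM in the TCF4 samples. The groups were well apart and sample 1 was the highest. The log2 fold change was 2.65 ± 0.34 (SE, adjusted p 0.00044) and 2.03 ± 0.20 without sample 1 (adjusted p 1.8e-07). Its antisense gene Notumos overlaps it and passed too (1.95 and 1.87), and since the use of strand in counting is not given in the sources used here, their reads cannot be told apart.

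Dkk1, a secreted antagonist of WNT co-receptors (chr19:30545863-30549665), stood at 15.7, 11.3 and 8.15 CPM against 2.52, 3.59 and 3.28 CPM. All TCF12 samples lay above all TCF4 samples, with a log2 fold change of 1.89 ± 0.22 (SE, adjusted p 0.00022) and 1.63 without sample 1. Its mean was 16.3 CPM in the monomer line without doxycycline and 4.92 CPM in the parental line.

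Hand1, a helix-loop-helix factor of lateral and extra-embryonic mesoderm (chr11:57828705-57832818), stood at 16.8, 10.01 and 5.08 CPM against 3.54, 2.22 and 2.19 CPM. The groups did not overlap, and the log2 fold change was 1.99 ± 0.37 (SE, adjusted p 0.0085) and 1.51 ± 0.29 without sample 1 (adjusted p 0.0014). Isl1, a LIM homeodomain factor of cardiac progenitors and motor neurons (chr13:116298281-116309689), stood at 5.98, 5.005 and 5.004 CPM against 2.04, 1.796 and 0.973 CPM. Its samples did not overlap either, and its log2 fold change was 1.76 ± 0.34 (SE, adjusted p 0.012) and 1.68 without sample 1. Lhx2, a LIM homeodomain factor of eye, forebrain and limb (chr2:38339281-38369733), was nearly level over the TCF12 group. It stood at 10.8, 11.6 and 10.8 CPM against 3.38, 3.42 and 2.86 CPM, with a log2 fold change of 1.79 ± 0.28 (SE, adjusted p 0.0022) and 1.80 without sample 1, and it overlaps 2 antisense genes.

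Gata2, a zinc finger factor needed for blood progenitors (chr6:88193891-88207032), stood at 8.18, 5.74 and 5.97 CPM against 2.44, 2.57 and 2.01 CPM. Its log2 fold change was 1.50 ± 0.19 (SE, adjusted p 0.00048) and 1.34 without sample 1. Lox encodes an enzyme that cross-links collagen and elastin and overlaps 1 antisense gene. It stood at 5.25, 7.14 and 6.78 CPM against 2.12, 2.31 and 1.95 CPM, so sample 1 was the lowest of its group but above all TCF4 samples, and its log2 fold change was 1.60 ± 0.24 (SE, adjusted p 0.0021) and 1.72 without sample 1.

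In Serpinf1, Crabp1, Selm and Fam212a sample 1 was far above the others of its group. Serpinf1, which encodes a secreted serpin-family factor, stood at 85.1, 42.2 and 33.6 CPM against 21.5, 17.4 and 15.3 CPM (1.56 and 1.08). Crabp1, which encodes a cytoplasmic retinoic acid binding protein, stood at 78.3, 30.4 and 23.4 CPM against 16.04, 14.5 and 13.9 CPM (1.56 and 0.86). In both genes all TCF12 samples lay above the TCF4 samples. Selm stood at 73.5, 24.6 and 18.3 CPM against 12.5, 10.6 and 11.4 CPM (1.74 and 0.90) and Fam212a at 47.1, 17.6 and 13.2 CPM against 9.28, 7.87 and 7.48 CPM (1.64 and 0.91), so the size of these rises leans on that library. Fam181b, at 3.69 to 9.02 against 1.65 to 2.05 CPM, had values of 1.50 and 0.98.

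**Figure D4:**
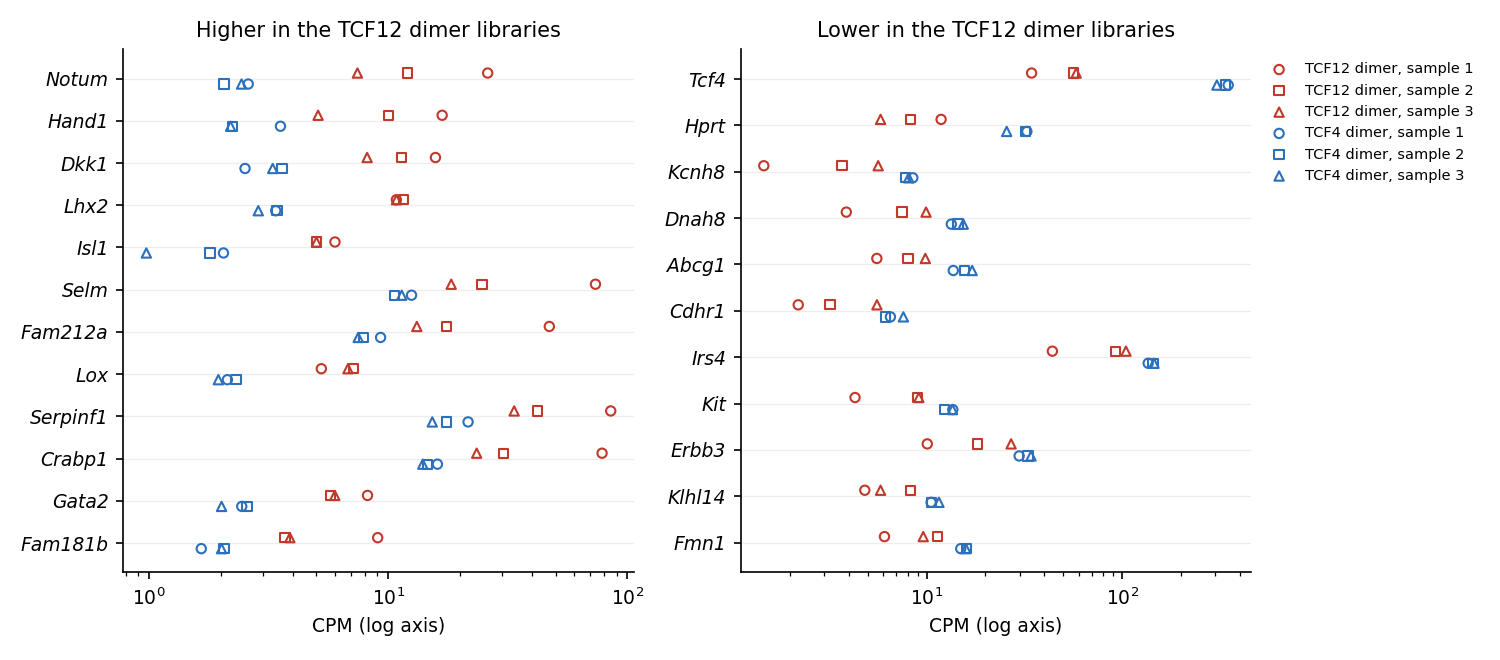
Abundance (CPM, log axis) of the 12 genes with the largest rises (left) and 11 of the 12 with the largest falls (right) in each library labelled TCF12 dimer (red) and each TCF4 dimer library (blue), with 1 symbol shape per sample number. Groups do not overlap for any gene shown, which was a condition of the choice, and sample 1 labelled TCF12 dimer (red circle) is often the red point farthest from the blue ones.

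The means of these 12 genes were below those of the TCF4 group in the parental line for 11 of them, the exception being Dkk1, and in the TWIST1 homodimer line for 11. In the TCF3 dimer group 0 were below the TCF4 mean and 5 were above the mean of the TCF12 group, or 8 above its mean without sample 1. These are positions of means with no test, and the genes were chosen for their difference between the TCF12 and TCF4 groups.

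Promoters of changed genes were read for the E-box. In the 250 bases before the start site, the letters CANNTG, which match on both strands at once, occur in 66.2% of 32851 mouse promoters (RefSeq, GRCm38.p6). Taking the first listed promoter, 9 of the 12 genes with the largest rises had an entry and 4 held a match, and 7 of the 12 with the largest falls had an entry and 3 held one. The sequences show the matches, in capitals, in 4 genes that rose and in Cldn6, which fell. Isl1 and Id2 hold CAGCTG (13% of promoters), Snai1 and Cldn6 hold CACCTG or its reverse complement CAGGTG (17.2%), and Serpinf1 holds 4 E-boxes. Offsets count from the start site to the first base of the match.
Isl1, match at -103 (chr13:116309689-116309938, minus strand): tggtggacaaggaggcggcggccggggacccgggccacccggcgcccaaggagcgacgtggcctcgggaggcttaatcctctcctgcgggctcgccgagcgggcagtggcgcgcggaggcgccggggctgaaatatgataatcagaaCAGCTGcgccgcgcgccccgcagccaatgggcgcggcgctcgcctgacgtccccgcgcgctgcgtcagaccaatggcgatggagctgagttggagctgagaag
Id2, match at -196 (chr12:25096093-25096342, minus strand): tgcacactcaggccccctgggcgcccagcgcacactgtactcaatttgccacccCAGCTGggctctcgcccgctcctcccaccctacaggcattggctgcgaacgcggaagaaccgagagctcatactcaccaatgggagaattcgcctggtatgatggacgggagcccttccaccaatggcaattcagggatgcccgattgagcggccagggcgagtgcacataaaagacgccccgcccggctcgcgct
Snai1, match at -126 (chr2:167537945-167538194, plus strand): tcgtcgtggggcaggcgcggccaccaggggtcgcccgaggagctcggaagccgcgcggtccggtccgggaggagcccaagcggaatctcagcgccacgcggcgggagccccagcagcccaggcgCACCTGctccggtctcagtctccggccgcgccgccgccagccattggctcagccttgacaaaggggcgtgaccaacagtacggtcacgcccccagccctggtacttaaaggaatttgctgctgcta
Serpinf1, matches at -231, -189, -76 and -13 (chr11:75422624-75422873, minus strand): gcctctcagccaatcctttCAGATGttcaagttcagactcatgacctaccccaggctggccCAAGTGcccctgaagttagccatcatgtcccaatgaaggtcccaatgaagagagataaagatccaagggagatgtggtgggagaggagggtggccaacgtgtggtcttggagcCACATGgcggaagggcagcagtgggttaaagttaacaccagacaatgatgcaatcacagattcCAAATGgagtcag
Cldn6, match at -93 (chr17:23679115-23679364, plus strand): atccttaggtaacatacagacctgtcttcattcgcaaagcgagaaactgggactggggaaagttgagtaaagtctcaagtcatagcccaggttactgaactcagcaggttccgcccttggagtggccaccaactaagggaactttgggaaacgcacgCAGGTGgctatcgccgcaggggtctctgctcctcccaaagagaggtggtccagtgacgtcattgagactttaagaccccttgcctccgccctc
A match is a run of letters and not a measured binding site. Only promoters with a match are printed. Of the other genes read that rose, Selm, Fam181b and Zic1 held a match as well. Dkk1, Lhx2, Crabp1, Vim, Fam212a, Gata2, Gata3, Cd34, Efnb1, Id3 and Id4 rose and had no match in this window. For Id1 no promoter entry was found.

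The Id genes encode the inhibitors that compete for E proteins, and 4 of 4 rose. Their median log2 fold change was 1.12, and 0.61 without sample 1, against 0.01 and 0.00 over all genes tested. Id1 stood at 1060.3, 426 and 311 CPM against 271, 241 and 216 CPM. Id3 stood at 632, 250.5 and 187 CPM against 168, 142 and 122 CPM. In both, sample 1 lay far above samples 2 and 3, and all TCF12 samples lay above the TCF4 group. The log2 fold change of Id1 was 1.31 ± 0.28 (SE, adjusted p 0.019) and 0.61 ± 0.11 without sample 1 (adjusted p 0.00057). Id2 (0.89 and 0.61), Id3 (1.31 and 0.61) and Id4 (0.92 and 0.64) passed likewise. The 4 calls were lost without TCF4 sample 2 or 3, and they held with sample 1 labelled TCF12 dimer also left out, except that of Id4 without TCF4 sample 3. Of 11 tested tissue-specific helix-loop-helix genes (median 0.25 and 0.46), Hand1 and Bhlhe22 (1.49 and 1.30) rose and Neurod1 fell (-0.58 and -0.53).

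Of 17 tested genes of lateral plate, extra-embryonic and cardiac mesoderm, 6 rose and 1 fell. A positive value was found for 16 of the 17, against 7349 of all 14311 genes tested, with a median log2 fold change of 0.70 (0.71 without sample 1). Those that rose were Hand1, Isl1, Tbx3, Msx1, Msx2 and Pdgfrb. Pdgfrb, a growth factor receptor of mesenchymal and mural cells, stood at 20.3, 26.8 and 28.01 CPM against 18.3, 15.2 and 15.4 CPM. Its samples were apart, with a log2 fold change of 0.62 ± 0.16 (SE, adjusted p 0.038) and 0.75 without sample 1. This call was lost without any 1 TCF4 sample and with scaling by library size only (adjusted p 0.09). Msx1, a homeobox gene of mesenchyme that responds to BMP, stood at 14.6, 9.93 and 9.201 CPM against 5.98, 6.33 and 5.84 CPM (0.88 and 0.66). Postn, which encodes a matrix protein, was the member that fell, at 0.404 to 0.525 against 1.198 to 1.57 CPM (-1.52 and -1.59), levels close to the floor of 3 counts.

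Kdr encodes the VEGF receptor of early vascular and cardiac progenitors. It stood at 5.56, 11.6 and 12.4 CPM against 6.61, 5.902 and 5.05 CPM, so that samples 2 and 3 lay above the TCF4 samples and sample 1 lay among them. Its log2 fold change was 0.78 ± 0.24 (SE, adjusted p 0.075) and 1.05 ± 0.17 without sample 1 (adjusted p 0.00015), and 0.92 (adjusted p 0.0057) with the length trend removed. Pdgfra passed only without sample 1 as well (0.36 and 0.52). Hand2, at 1.48 to 4.197 against 0.852 to 1.42 CPM, did not pass (adjusted p 0.093 and 0.37). Foxf1 did not pass with 21 samples (0.87, adjusted p 0.25). Summed over Hand1, Hand2, Kdr and Foxf1, markers of lateral plate mesoderm amounted to 19.94 to 27.8 CPM in the TCF12 group and 8.39 to 12.1 CPM in the TCF4 group. Hand1, chosen above for its rise, holds 16.8, 10.01 and 5.08 CPM of the sums in samples 1 to 3 labelled TCF12 dimer. The sums are therefore no separate support. In such bulk RNA, more cells of a type and more RNA per cell cannot be told apart.

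Of 13 tested homeobox, forkhead and other factors of paraxial mesoderm and mesenchyme, Prrx2, Pax3, Foxc1 and Ebf2 rose and 0 fell (median 0.50, and 0.40 without sample 1). Pax3, a paired-box factor of somites and neural crest, stood at 6.401, 9.19 and 6.54 CPM against 3.303, 3.34 and 2.62 CPM. The groups did not overlap, and the log2 fold change was 1.27 ± 0.25 (SE, adjusted p 0.012) and 1.36 without sample 1. Prrx2, a homeobox gene of mesenchyme, was highest in sample 1, at 50.5, 19.1 and 15.7 CPM against 11.2, 9.84 and 9.31 CPM (1.47 and 0.78). For Ebf2 sample 1 lay among the TCF4 samples (1.68, 4.51 and 3.79 CPM against 1.81, 0.855 and 1.03 CPM), and its call was lost without sample 2 labelled TCF12 dimer. Of 7 tested neural crest genes Sox9 (0.77 and 0.79), Pax3 and Msx1 rose, with a list median of 0.77 (0.66 without sample 1). The crest markers Sox10, Tfap2a, Tfap2b and Foxd3 summed to 54.3 to 58.6 CPM in the TCF12 group and 58.7 to 58.9 CPM in the TCF4 group, and 1 of the 4 was at 0 in samples 1 and 2 labelled TCF12 dimer. Such a sum depends most on its most abundant member. With 21 samples Tfap2a (1.04, adjusted p 0.068, edgeR), Sox10 (-0.24) and Foxd3 (-0.08) did not pass. Tfap2a passed with DESeq2 (adjusted p 0.048), and in edgeR with a replicate block (0.047) or no filter on low counts (0.02). It also passed with limma voom weights (adjusted p 0.018). It did not pass in edgeR with library size only (adjusted p 0.09) or RLE factors (0.065). Without sample 1, 4 of the 7 neural crest genes passed as higher, against 2.99% of all genes.

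Epithelial-mesenchymal transition genes passed on both of its sides. Of 6 tested transition factors Snai1 and Zeb1 rose and 0 fell (median 0.60, and 0.66 without sample 1). Snai1, a repressor of epithelial genes, stood at 78.7, 59.8 and 37.1 CPM against 30.3, 25.6 and 24.8 CPM. Its log2 fold change was 1.12 ± 0.22 (SE, adjusted p 0.013) and 0.85 without sample 1. Zeb1, another such repressor, stood at 7.03, 10.2 and 8.72 CPM against 5.82, 5.47 and 3.65 CPM (0.82 and 0.95), and neither gene overlapped between the groups. Zeb2 passed only without sample 1 (0.37 and 0.63), and Snai2, at 4.36 to 6.61 against 2.91 to 3.102 CPM, did not pass (adjusted p 0.081 and 0.13).

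Among 22 tested genes of mesenchymal matrix and cytoskeleton, Vim, Col1a2, Col5a1 and Tgfbi rose and Postn fell (median 0.22, and 0.12 without sample 1). Vim, the intermediate filament of mesenchymal cells, stood at 362, 249 and 218 CPM against 148, 143 and 135 CPM. The groups were apart, its log2 fold change was 0.96 ± 0.14 (SE, adjusted p 0.002) and 0.72 ± 0.08 without sample 1 (adjusted p 1.8e-06), and it passed in all 6 fits that left out 1 library. Col1a2, a chain of type I collagen, stood at 15.6, 16.9 and 20.4 CPM against 9.36, 8.21 and 12.2 CPM (0.82 and 0.89). Cdh2, the neural and mesenchymal cadherin, overlapped between the groups at 34.4 to 54.97 against 43.4 to 46.2 CPM, and so did Fn1, which encodes fibronectin, at 127 to 293 against 274 to 281 CPM.

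On the epithelial side 5 of 21 tested genes fell and 0 rose (median -0.28, and -0.36 without sample 1), and 13 of the 21 passed as lower without sample 1. Esrp1, a splicing factor that maintains epithelial isoforms, stood at 75.1, 91.7 and 99.6 CPM against 127, 126 and 116 CPM. All TCF12 samples were below the TCF4 group, with a log2 fold change of -0.47 ± 0.08 (SE, adjusted p 0.0069) and -0.36 without sample 1. Cdh1, the epithelial cadherin, stood at 621, 862 and 949 CPM against 1048, 1041 and 1081 CPM (-0.38, adjusted p 0.044, and -0.22, adjusted p 0.0053). Esrp2 (-0.54 and -0.41) and the tight junction genes Cldn6 (-0.45 and -0.52) and Tjp3 (-0.57 and -0.55) fell too. Krt8 and Krt18, which encode keratins of simple epithelia, passed only without sample 1. Krt8 stood at 139, 80.7 and 74.9 CPM against 96.5, 97.2 and 94.8 CPM, so sample 1 was the highest of the 6 and samples 2 and 3 the lowest (0.03 and -0.31). Of the 5 genes that fell, Esrp1 passed in all 6 fits that left out 1 library, and Cdh1 and Esrp2 lost their call without any 1 of the TCF4 samples.

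**Figure D5:**
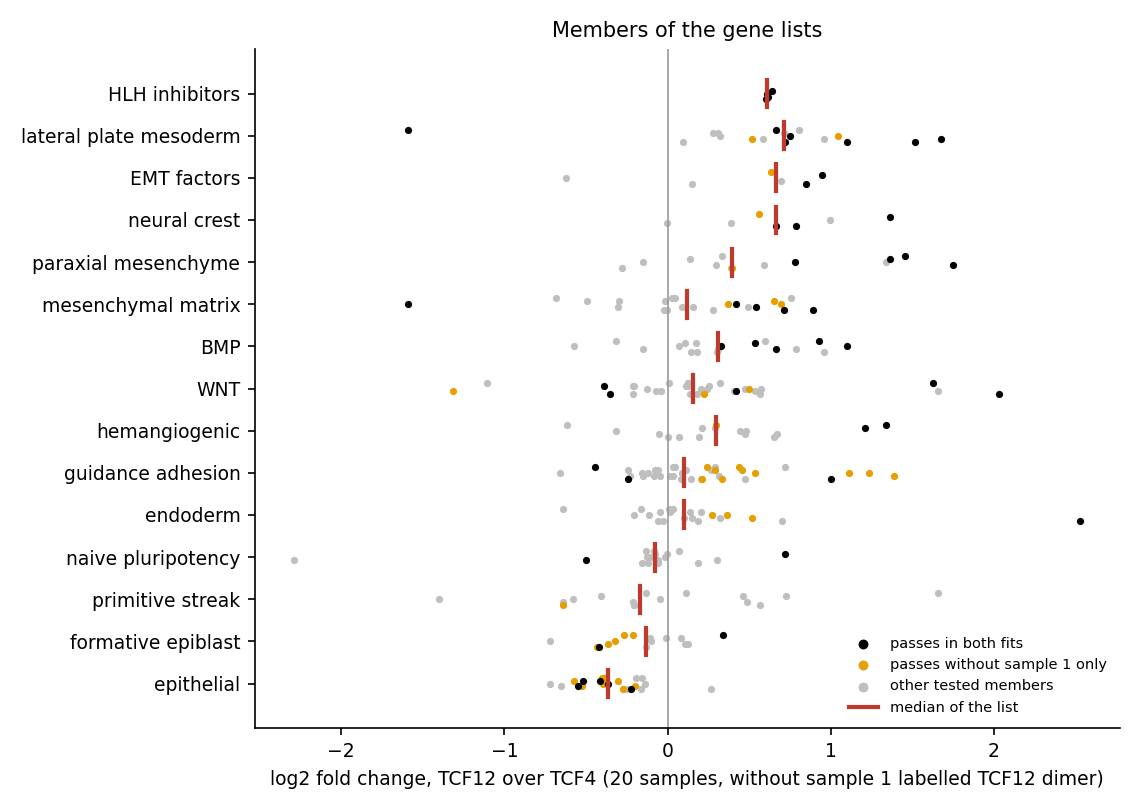
Log2 fold change of TCF12 over TCF4 without sample 1 labelled TCF12 dimer (horizontal axis) for the tested members of 15 gene lists (vertical axis). Black points passed in both fits, orange points only without sample 1 and grey points are the other members, and the red bars are list medians, such as 0.71 for lateral plate mesoderm and -0.36 for the epithelial list.

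Of 16 tested blood and endothelial genes, Gata2 and Cd34 rose and 0 fell (median 0.29, and 0.30 without sample 1). Cd34, a sialomucin of blood and endothelial progenitors that other progenitor cells carry as well, stood at 167, 145 and 126 CPM against 63.3, 59.5 and 53.3 CPM. The groups lay far apart, with a log2 fold change of 1.31 ± 0.12 (SE, adjusted p 1.2e-05) and 1.21 ± 0.09 without sample 1 (adjusted p 1e-10), and the call held in all 6 fits that left out 1 library. The markers Tal1, Gata1, Pecam1, Cdh5 and Hbb-bh1 summed to 12.8 to 16.8 CPM in the TCF12 group and 12.7 to 17.6 CPM in the TCF4 group, ranges that overlap. Etv2, a regulator of the hemangiogenic fate, passed with 21 samples only (1.12 and 0.65).

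In the BMP pathway, whose ligands pattern ventral and lateral mesoderm, 5 of 18 tested genes rose and 0 fell (median 0.33, and 0.31 without sample 1). They are the ligand Bmp7, the feedback inhibitors Smad6 and Bambi, and the target genes Msx1 and Msx2. Bmp7 stood at 42.4, 33.3 and 23.2 CPM against 19.98, 19.9 and 18.6 CPM, with a log2 fold change of 0.75 ± 0.18 (SE, adjusted p 0.027) and 0.54 without sample 1. Smad6 stood at 13.96, 11.2 and 7.59 CPM against 5.74, 5.39 and 3.83 CPM (1.13 and 0.93). In both genes sample 1 was the highest and the groups did not overlap. Bambi (0.60 and 0.33) and Msx2 (1.26 and 1.10) passed in 0 of the 3 fits that left out a TCF4 sample together with sample 1 labelled TCF12 dimer.

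In the WNT pathway the genes that passed in both fits are antagonists, receptors and an effector. Of 32 tested, Notum, Dkk1 and Tcf7l2 rose and Fzd7 and Lrp5 fell (median 0.15, and 0.16 without sample 1). Fzd7, a WNT receptor, stood at 115, 182 and 199.8 CPM against 229, 249 and 255 CPM, with a log2 fold change of -0.56 ± 0.13 (SE, adjusted p 0.024) and -0.36 without sample 1. Lrp5, a WNT co-receptor, stood at 49.2, 92.2 and 97.3 CPM against 116, 121 and 134 CPM (-0.63 and -0.39). In both genes sample 1 was far below samples 2 and 3, and all 3 lay below the TCF4 group. Tcf7l2, a nuclear effector, rose by less (0.36 and 0.42), and its call was lost without any 1 TCF4 sample or without sample 2 labelled TCF12 dimer.

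Of 13 tested Nodal and TGF-beta genes (median 0.12, and 0.06 without sample 1), Tgfb2, a ligand, rose (1.19 and 1.17), and so did Lefty2, an inhibitor of Nodal (0.38 and 0.34, adjusted p 0.053 with the length trend removed). Lefty2 passed in 0 of the 3 fits that left out a TCF4 sample together with sample 1 labelled TCF12 dimer. Nodal itself stood at 13.3, 11.7 and 11.9 CPM against 15.02, 17.2 and 22.1 CPM and passed only without sample 1 (-0.57, adjusted p 0.067, and -0.64, adjusted p 0.016). Of 38 tested guidance and adhesion genes (median 0.05, and 0.10 without sample 1) Efnb1 rose and Epha1 (-0.35 and -0.24) and Itga3 (-0.58 and -0.45) fell, and 11 passed as higher without sample 1. Efnb1, which encodes a membrane ligand of Eph receptors that takes part in boundary formation, stood at 31.5, 30.9 and 22.6 CPM against 14.7, 14.03 and 11.6 CPM. The groups did not overlap, its log2 fold change was 1.08 ± 0.12 (SE, adjusted p 0.00014) and 1 without sample 1, and it passed in all 6 fits that left out 1 library. Epha3, an Eph receptor, stood at 7.87, 17.9 and 15.5 CPM against 9.28, 7.53 and 6.57 CPM and passed only without sample 1 (0.84 and 1.11).

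Some pluripotency genes and 0 streak genes passed in both fits, against 2.74% of all genes tested in both. Of 17 genes of naive and general pluripotency, Nanog fell and Tbx3 rose (median 0.09, and -0.08 without sample 1). Nanog, a homeodomain factor of pluripotent cells, stood at 42.8, 59.8 and 69.6 CPM against 81.9, 90.7 and 101 CPM. The groups did not overlap, and the log2 fold change was -0.67 ± 0.14 (SE, adjusted p 0.018) and -0.50 without sample 1. Pou5f1, at 494 to 769.9 against 526 to 552 CPM, and Sox2, at 132 to 153 against 133 to 157 CPM, did not pass. Of 15 formative and epiblast genes (median -0.21, and -0.13 without sample 1), Fgf5, a ligand of the primed epiblast, fell and Lefty2 rose. Fgf5 stood at 72.1, 82.95 and 94.4 CPM against 111, 117 and 126 CPM (-0.51 and -0.42), and 6 of the 15 passed as lower without sample 1. Of 16 tested streak genes (median -0.14, and -0.17 without sample 1) 0 passed in both fits, and T stood at 0.839 to 1.89 against 1.34 to 2.22 CPM.

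Genes of other lineages passed too, where 1.73% of all genes tested in both fits rose and 1.01% fell. Without sample 1, 3 of 9 neural, 4 of 21 endoderm and 2 of 9 trophoblast genes passed as higher, against 2.99% of all genes. Of 8 tested neural genes (median 0.47, and 0.39 without sample 1) Zic1 and Lhx2 rose. Zic1, a zinc finger factor of dorsal neural tube and somites, stood at 15.8, 23.1 and 15.8 CPM against 7.47, 7.78 and 5.96 CPM (1.38, adjusted p 0.00048, and 1.47, adjusted p 5.4e-07), whereas the markers Pax6, Sox1 and Nes summed to 111.5 to 125.8 CPM in the TCF12 group and 113.5 to 134.7 CPM in the TCF4 group. Of 21 endoderm genes (median 0.14, and 0.10 without sample 1) Alb rose in both fits, at 4.72, 4.02 and 3.15 CPM against 0.708, 0.257 and 0.791 CPM (2.67, adjusted p 0.0021, and 2.53, adjusted p 6.9e-05). The TCF4 levels of Alb are low, and that of TCF4 sample 2 is close to the floor of 3 counts (0.262 CPM). The 7 endoderm markers summed to 28.5 to 35.3 CPM in the TCF12 group and 23.9 to 30.5 CPM in the TCF4 group, and their part in the result for Alb was not tested. Of 9 trophoblast genes (median 0.14, and 0.00 without sample 1) Gata3 (2.13 and 1.93) and Plac1 (2.07 and 1.49) rose from low levels, and Plac1 passed in 0 of the 3 fits that left out a TCF4 sample together with sample 1 labelled TCF12 dimer. Gata3 stood at 1.99, 1.48 and 1.21 CPM against 0.315, 0.342 and 0.365 CPM, and 2 of the 4 trophoblast markers were at 0 counts in every one of the 6 libraries.

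The remaining lists had at most 3 genes passing in both fits, where 2.74% of all genes tested in both passed. Fgf5 fell among 20 FGF genes, Jag2 (-0.62 and -0.45) among 15 NOTCH genes and Slc2a1 (-0.41 and -0.37) among 24 genes of glycolysis and hypoxia. The median of the FGF list was 0.06 (0.11 without sample 1). Without sample 1, 3 FGF and 5 imprinted genes passed as higher and 1 of each list as lower. Crabp1 rose among 12 retinoic acid genes and Gadd45a (0.72 and 0.42) among 17 p53 targets, the call of Gadd45a holding in 0 of the same 3 fits. Of 28 imprinted genes Ndn (0.55 and 0.32) and Nnat (0.81 and 0.41) rose and H19 fell. H19, a non-coding RNA, stood at 1.26, 0.985 and 1.45 CPM against 2.91, 2.31 and 4.01 CPM (-1.34 and -1.36). Of 18 immediate early and heat shock genes 0 passed in either fit, and of 15 Hox genes 2 were abundant enough to test and 0 passed. Medians by chromosome were taken over tested genes averaging at least 10 CPM in the 6 libraries. With 21 samples the median log2 fold change lay between -0.038 and 0.048 on the autosomes and was 0.007 on X. Without sample 1 it lay between -0.021 and 0.025 on the autosomes and was 0.061 on X.

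The largest falls included those of Tcf4, Hprt, Kcnh8, Dnah8, Abcg1, Cdhr1, Irs4, Kit, Erbb3, Klhl14 and Fmn1. A fall here is relative to the TCF4 group. For the 12 largest falls, the parental mean lay above the TCF4 mean in 7 and below the TCF12 mean in 4, such as Irs4 and Klhl14, with no test. Abcg1, a cholesterol transporter (chr17:31057675-31117988), stood at 5.56, 8.04 and 9.85 CPM against 13.7, 15.6 and 17.1 CPM. Its samples did not overlap, its log2 fold change was -0.97 ± 0.16 (SE, adjusted p 0.0038) and -0.80 without sample 1, and it passed in all 6 fits that left out 1 library. Dnah8, a dynein heavy chain, stood at 3.88, 7.47 and 9.93 CPM against 13.4, 14.5 and 15.4 CPM (-0.997 and -0.73), and it overlaps 7 genes on the other strand. Kcnh8, a potassium channel, stood at 1.47, 3.69 and 5.65 CPM against 8.49, 7.78 and 8.09 CPM (-1.13 and -0.80). Fmn1, a formin (-0.77 and -0.57), fell as well and overlaps 5 genes on the other strand.

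Irs4, an adaptor of the insulin receptor, stood at 43.97, 92.6 and 105 CPM against 136, 144 and 146 CPM (-0.81 and -0.52). Kit, the receptor of stem cell factor (chr5:75574916-75656722), stood at 4.302, 8.94 and 9.12 CPM against 13.6, 12.3 and 13.6 CPM, with a log2 fold change of -0.80 ± 0.18 (SE, adjusted p 0.027) and -0.55 without sample 1. Erbb3, a receptor for neuregulins, stood at 10.1, 18.1 and 27.04 CPM against 29.7, 33.02 and 34.2 CPM (-0.80 and -0.52). In these 3 genes sample 1 was by far the lowest, and all TCF12 samples lay below the TCF4 group. Cdhr1, a photoreceptor cadherin (-0.86 and -0.63), and Klhl14 (-0.78 and -0.63) fell as well. Kcnh8, Cdhr1, Irs4, Kit, Erbb3 and Klhl14 lost their call without any 1 TCF4 sample, and Dnah8 and Fmn1 without TCF4 sample 2 or 3. With sample 1 labelled TCF12 dimer also left out, the calls of Cdhr1 and Klhl14 were lost without TCF4 sample 3.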

How the data were processed

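The authors deposited 1 table of raw counts per gene symbol for each of 21 libraries (TruSeq mRNA kit, per the labels' protocols). The submitters' processing notes name FastQC, TopHat2, HTSeq, mm10 and GRCm38, and whether counting used strand is not given in the sources used here. Tables of 48321 symbols were joined by position. All 21 libraries entered 1 quasi-likelihood fit of edgeR 4.0.16 (R 4.3.3) with a mean per group, TMM factors and filterByExpr (minimum count 10, total 15). Benjamini-Hochberg adjustment ran over all genes tested, and genes under 0.05 passed. The fit was repeated without sample 1 labelled TCF12 dimer. CPM use TMM factors.

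Named genes are the 12 higher and 12 lower with the largest log2 fold change among genes that passed in both fits, with groups apart and at least 5 CPM in the higher group, of which 1 is not reported here, plus construct genes, Hprt and members of 29 lists (479 symbols). The members and lists were chosen with earlier results of these data known. Alternatives were DESeq2 1.42.0, RLE factors, library size, other filters, the 6 libraries alone, a replicate block, limma 3.58.1 voom weights and leaving out each library. Lengths and positions came from GENCODE M21 (97.2% of tested genes had a length). The edgeR step was tested on simulated data with the same spread in every library and no length trend. That test does not cover the bias of sample 1 labelled TCF12 dimer.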

Additional observations from a re-analysis of the deposited data

How the results depend on the processing

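With 21 samples 464 genes passed (296 higher, 168 lower). RLE factors gave 458, a minimum of 1 CPM in 3 samples 470, and the replicate number as a block 545 (346 higher, 199 lower). Same-numbered samples correlated at 0.0146, 0.102 and -0.0215 across genes, and samples of different number at -0.12 to 0.0714. These correlations are of deviations from group means, which include sample 1 labelled TCF12 dimer with its length bias. Whether the numbers pair the samples therefore cannot be told. Larger shifts came from DESeq2 (951, 631 higher, 320 lower), library size only (306, 170 higher; the median of all genes moved to -0.07 on the log2 scale), no filter on low counts (1443, 1097 higher, 346 lower), limma voom with sample quality weights (1197, 708 higher, 489 lower; weight 0.0328 for sample 1 labelled TCF12 dimer) and the 6 libraries alone with edgeR (0, with 0 higher and 0 lower; 898 at an unadjusted p under 0.05). Leaving out 1 library gave 49 to 4868 genes (37 to 2849 higher, 12 to 2019 lower). Without sample 1 labelled TCF12 dimer it was 256 lower, and the common coefficient of variation was 0.0539 instead of 0.12. Chosen after seeing the data, removing the length trend gave 999 (649 higher, 350 lower), the block without sample 1 labelled TCF12 dimer 859 (529 higher, 330 lower), DESeq2 without it 480, and leaving out that sample and a TCF4 library 342 to 683 (219 to 412 higher, 123 to 271 lower). The cause was not tested.

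The 24 genes named by rule kept their direction in the settings run. Of them 24 lost their call with the 6 libraries alone, 3 with library size only, 7, 13 and 16 without TCF4 sample 1, 2 or 3, 4 with DESeq2 without sample 1 labelled TCF12 dimer, 1 in the 5 libraries alone and 3 without that sample and TCF4 sample 3. Of the other genes named, 71 lost their call with the 6 libraries alone and 16 with library size only. Without TCF4 sample 1, 2 or 3, 29, 53 and 64 of these lost it. With sample 1 labelled TCF12 dimer left out, 15 lost it with DESeq2 and 6 in the 5 libraries alone. Without that sample and TCF4 sample 3, 28 lost it. Krt8 did not pass with 21 samples (0.03) and passed as lower with voom weights (-0.28), in 5 libraries (-0.31), with DESeq2 (-0.30) or the block (-0.32) without sample 1 labelled TCF12 dimer, and without it and TCF4 sample 1 (-0.31). Leaving out 1 library moved Krt8 between -0.31 and 0.18. Low counts limit Alb, Postn, H19, Gata3 and Plac1.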

Other observations

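Further genes that passed in both fits were chosen after their values were seen and carry no test as groups. Genes of elastic fibres and collagen assembly were among those higher in the libraries labelled TCF12 dimer. Mfap4, a microfibril-associated protein, stood at 69.4, 55.5 and 49.9 CPM against 32.01, 34.2 and 33.8 CPM (0.80 and 0.66 without sample 1, on the log2 scale). Emilin1 (0.77 and 0.58), Emilin3 (0.94 and 0.86), Fbln5 (0.75 and 0.70), Fbn2 (0.75 and 0.98) and Pcolce (0.78 and 0.44) passed beside Lox, the call of Fbn2 being lost without sample 2 labelled TCF12 dimer. Fbn1, another fibrillin, did not pass (0.28 and 0.49), nor did Eln, which encodes elastin (0.27 and -0.05). Of patterning factors outside the lists, Irx3 (1.51 and 1.31), En1 (1.54 and 1.32), Tbx2 (1.23 and 1.26) and Eya1 (0.76 and 0.96) were higher, and the calls of Tbx2 and Eya1 were lost without sample 2 labelled TCF12 dimer.

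Genes of amino acid supply were among those lower, by small amounts. Slc7a3, a transporter of cationic amino acids, stood at 127, 140.1 and 156 CPM against 188, 193 and 199 CPM (-0.45, adjusted p 0.015, and -0.39, adjusted p 0.0019). The transporters Slc7a5 (-0.43 and -0.29) and Slc1a4 (-0.66 and -0.51), Psat1 of serine synthesis (-0.39 and -0.35), Aldh18a1 of proline synthesis (-0.46 and -0.34) and the transcription factor Cebpg (-0.31 and -0.34) passed, though Cebpg did not with the length trend removed (adjusted p 0.18). Asns (0.09 and -0.04) and Atf4 (0.10 and -0.09) did not pass. The cold-inducible RNA binding genes Rbm3 and Cirbp were higher. Rbm3 stood at 665, 349.5 and 283 CPM against 253, 210.2 and 144 CPM (1.10 and 0.65), and Cirbp at 28.1, 13.9 and 13.6 CPM against 11.7, 9.84 and 8.52 CPM (0.88 and 0.47). The genes in these paragraphs that passed, other than Lox, lost their call without TCF4 sample 3.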
